A study of Drosophila melanogaster with 21 samples.

Results

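The regions described here are 1199 pairs of alternative 3′ splice sites in Drosophila melanogaster, in which introns of different transcripts of 1 gene share the 5′ splice site and end 1 to 100 nt apart. They were taken from the BDGP6 gene annotation: 2076 such pairs were annotated in 1460 genes, and 1199 pairs (57.8%) in 862 genes had a summed abundance of at least 1 TPM in all 21 libraries. The other 877 pairs fell below that minimum in at least 1 library. Another 5 pairs had the same value in every library, which left 1194 pairs in 857 genes for testing, out of 11697 tested pairs of introns that share 1 splice site and differ at the other. TPM is the abundance of a transcript scaled to a fixed total per library. For each pair, the proximal share is the summed TPM of the transcripts with the shorter intron as a percentage of the summed TPM of the transcripts with either intron. It is inferred from whole transcripts, since the deposited tables hold no counts of reads across splice junctions.

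The 3′ end of an intron carries a branch point, a pyrimidine-rich tract and a terminal AG. In flies as in other animals, the large subunit of U2AF (U2af50) binds the tract and the small subunit (U2af38) binds the AG, and together they help to recruit the U2 particle of the spliceosome. Where candidate AGs lie close together, either can be used, and the longer exon results from the proximal site. LS2 is a fly protein related to U2af50 that is enriched in testis and is known to bind G-rich RNA in place of pyrimidine tracts.

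RNA was sequenced from S2 cells, a cultured embryonic fly line with blood-cell features, in 7 groups of 3 libraries. All groups carried an integrated copper-inducible transgene, were selected with hygromycin, and received 500 µM copper sulfate for 53 h, the GFP control included. GFP carried no LS2 transgene and WT carried wild-type LS2. The mutant forms were d38 (W62A, D63A, I64A), RRM2 (F285D, F287D), Beta5 (K192E, R194E), the SF1 mutant (E370K, D371K) and GSlinker, in which residues H197 to P233 were replaced with GGS motifs. The series asked how these mutations change the regulation of splicing by LS2.

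Each construct is represented by 1 set of cells, so a cell line and its construct cannot be told apart, and nothing in the labels says that replicates were separate cultures. P-values then measure the spread between these libraries. LS2 stood at 1.46 to 3.97 TPM in GFP and at 5175 to 8216 TPM in the LS2 groups. The blood-cell genes Pxn, srp, crq, eater, Hml and He averaged from 8.99 (He) to 306 TPM (Pxn) over the 21 libraries, while NimC1 was at 0.0979 TPM. The muscle genes Act88F and Mhc were at 0.0777 and 0.0170 TPM, and the neuronal genes elav and nSyb at 3.90 and 0.386 TPM. Pxn differed between lines, at 491 ± 13.8 TPM in GFP and 217 ± 11.5 in WT (here and below, ± is the SD over n = 3 libraries). The level of U2af50 was 81.9 ± 1.51 TPM in GFP and 87.2 ± 2.87 in d38, against 65.1 ± 1.62 in WT and 61.7 ± 0.465 in RRM2. The part of either gene in the results was not tested. Libraries held 17667236 to 38553848 estimated counts. The SD of length minus effective length over long transcripts separated 2 sets of libraries. It ran from 68.4 to 88.6 nt in GFP, WT, RRM2 and d38 (12 libraries) and from 278 to 379 nt in GSlinker, Beta5 and the SF1 mutant (9 libraries). When one of the latter groups is compared with GFP or WT, its mutation and its library set cannot be told apart.

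The pairs were short and mostly kept the reading frame. Of the 1194 tested pairs, 338 (28.3%) were 3 nt apart, 2 were 1 or 2 nt apart, and the median distance was 12 nt. A multiple of 3 separated the sites in 918 pairs (76.9%). The segment between the sites overlapped the coding sequence of at least 1 proximal transcript in 857 pairs, called coding here, of which 90.3% had a multiple of 3. It overlapped none in 337 pairs, called untranslated, of which 42.7% did. A single pair was tested in 666 genes and several, up to 10, in 191 genes. Shares sum all transcripts with a site, so they also move with whatever else differs between those transcripts. In 884 pairs some transcripts of the 2 sites had the same other introns over the span that both cover. They are called identical elsewhere below, though their starts, ends and introns outside that span may differ. Each was matched to any transcript of the other site and then summed, so other differences can remain between the sums. Shares from these transcripts alone served as an alternative, in which 806 pairs were tested. The pairs were spread over chromosomes 2L (177), 2R (217), 3L (263), 3R (267), 4 (27) and X (243).

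**Figure D1:**
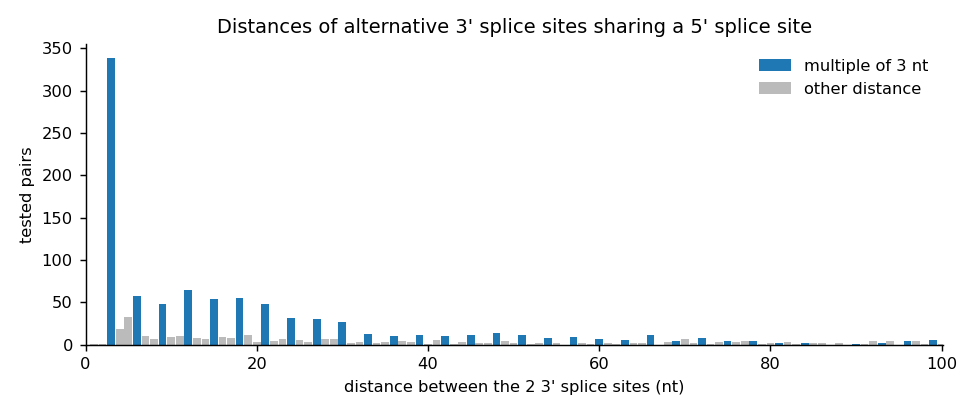
Number of tested pairs (vertical axis) at each distance between the 2 3′ splice sites in nt (horizontal axis), with distances that are a multiple of 3 in blue and the others in grey. The bar at 3 nt holds 338 pairs, and 918 of the 1194 pairs are at a multiple of 3.

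The first question was how proximal use changes when wild-type LS2 is expressed. The proximal share rose in WT in 103 pairs and fell in 52, in 130 genes together. These 155 pairs are 13.0% of the 1194, beside 14.2% of all 11697 splice-site pairs in the same comparison. By direction, rises made up 8.63% of these pairs (7.81% over all) and falls 4.36% (6.39% over all). At an unadjusted p under 0.05 there were 281 pairs. The test was limma on the log odds of the share, with Benjamini-Hochberg adjustment over all 11697 pairs and a threshold of 0.05, and the same holds for every adjusted p below. The median difference over the 1194 pairs was 0.08 points, beside 0.00 over all. The called pairs moved by a median of 12.1 points, beside 10.5 for all called splice-site pairs.

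Among the other classes, alternative 3′ sites over 100 nt apart had 569 of 3304 pairs called (17.2%, 322 higher and 247 lower). Pairs were formed from introns alone, so an intron that skips an exon also pairs with the intron before that exon. Exon skipping was not set apart, in this class or among all splice-site pairs. Alternative 5′ sites within 100 nt had 87 of 941 called (9.25%, 43 higher and 44 lower). Those over 100 nt apart had 851 of 6258 called (13.6%, 446 higher and 405 lower). The differences between these classes were not tested. At the edge of the distance limit, 6 of 30 pairs at 91 to 100 nt were called, with a median difference of −0.13 points. Just outside it, 3 of 12 pairs at up to 110 nt were called, with a median difference of −0.39 points.

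Pairs with a higher share in WT had low shares in GFP. Their median proximal share in GFP was 30.7%, against 88.6% in the pairs that fell and 71.5% in those not called. This value is part of the contrast itself and is only a description. Both called sets had longer proximal introns, with medians of 229 nt for the rises and 258 nt for the falls, against 106 nt for the pairs not called. Their sites were also farther apart, by a median of 22 and 21 nt against 12 nt. A multiple of 3 separated the sites in 71.8% of the rises and 69.2% of the falls, against 77.8%. Called pairs were also more abundant, with a median lowest summed TPM of 24.1 for rises and 26.5 for falls, against 14.2. Of all tested pairs, 340 had a mean share of the less used site under 5%. The part of abundance and low use in these contrasts was not tested. Transcripts identical elsewhere were available for 83 of the 103 rises and 38 of the 52 falls.

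By distance, most of the rises lay between 13 and 60 nt. At 3 nt, 22 of 338 pairs were called in WT against GFP (6.51%), 13 higher and 9 lower. At 4 to 12 nt, 23 of 259 were called (8.88%), 12 higher and 11 lower. At 13 to 30 nt, 64 of 327 were called (19.6%), 50 higher and 14 lower, with a median difference of 0.90 points and a mean of 2.24 points. At 31 to 60 nt, 26 of 152 were called (17.1%), 19 higher and 7 lower. At 61 to 100 nt, 20 of 116 were called (17.2%), 9 higher and 11 lower. The distance classes were set by hand and the differences between them were not tested.

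In the 13 to 30 nt class the excess of rises over falls held under the alternatives tried. It was 33 to 11 with only transcripts that are identical elsewhere, 31 to 8 in a fit of GFP and WT alone, and 57 to 13 by edgeR on estimated counts. Against GFP, the same class held 17 rises and 2 falls in d38, together 5.81% of its 327 pairs, below the 8.26% of all splice-site pairs. RRM2 had 23 and 12 (10.7%, beside 8.78% of all), Beta5 52 and 19 (21.7%, beside 21.3%), GSlinker 70 and 26 (29.4%, beside 26.8%) and the SF1 mutant 56 and 23 (24.2%, beside 26.6%). These comparisons share the 3 GFP libraries.

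The mean share over all pairs of a class was also taken per library, from the same pairs and libraries as the counts. At 13 to 30 nt it was 47.8% to 48.0% in the GFP libraries and 50% to 50.3% in the WT libraries. It was 49.1% to 50.2% in d38, 48.9% to 49.4% in RRM2, 50% to 50.3% in Beta5, 50.2% to 51.1% in GSlinker and 50% to 50.7% in the SF1 mutant. Every LS2 library thus lay above every GFP library, by a few points at most, and RRM2 lay below WT. In 221 pairs of this class, with only transcripts identical elsewhere, the GFP libraries were at 48.7% to 49.3% and the WT libraries at 51.8% to 52.5%, with d38 at 50.2% to 51.2% and RRM2 at 50.1% to 50.8%. At 31 to 60 nt GFP was at 57.3% ± 0.856 and WT at 58.7% ± 0.323, again with all LS2 libraries above GFP. At 3 nt the groups overlapped, with 67.6% ± 0.358 in GFP and 67.7% ± 0.239 in WT, and GSlinker alone had all its libraries above GFP, at 68.4% ± 0.187. At 4 to 12 nt all groups overlapped GFP, which was at 69.1% ± 1.04. At 61 to 100 nt WT (53.9% ± 0.684) overlapped GFP (54.2% ± 0.498), as did RRM2 and Beta5, while d38 (55.3% ± 0.629), GSlinker (55.6% ± 0.603) and the SF1 mutant (55.4% ± 0.345) had all libraries above GFP. The calls of d38 against GFP in that class were 3 rises and 4 falls, so means and calls did not always go together.

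**Figure D2:**
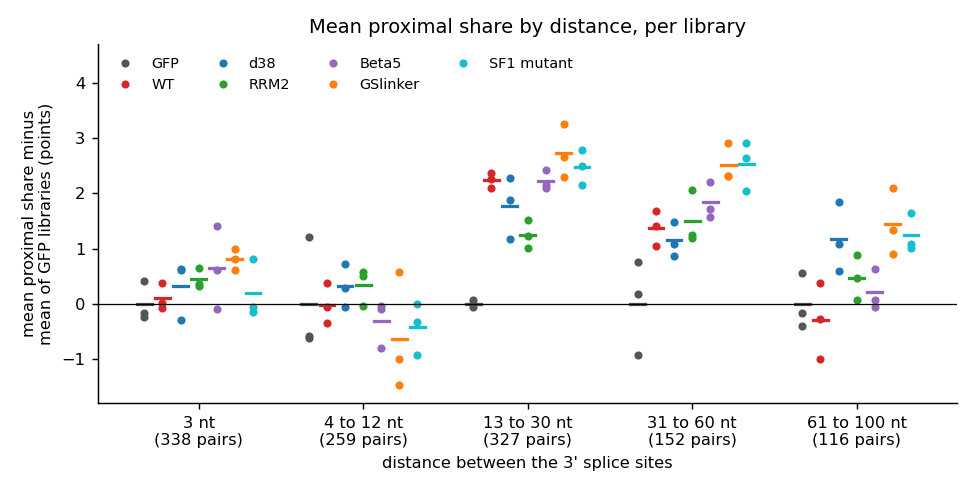
Mean proximal share of all pairs in a distance class, per library, as the difference in points from the mean of the 3 GFP libraries (vertical axis), for 5 classes of distance (horizontal axis), with 1 point per library and a bar for each group's mean. At 13 to 30 nt all LS2 libraries lie above all GFP libraries, while at 3 nt and at 4 to 12 nt GFP and WT overlap.

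The pairs named below are those with the largest differences among pairs with at least 5 TPM in every library, an adjusted p under 0.05 and no overlap between the libraries compared, 1 pair per gene. For WT against GFP, 136 pairs in 114 genes met those conditions. Coordinates are those of the introns in the BDGP6 annotation.

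The 12 largest rises ranged from 24.5 to 51.2 points. In Atg16, part of the complex that attaches lipid to Atg8 during autophagy, the sites are 24 nt apart in coding sequence (chromosome 3R, introns 29832373 to 29833192 and 29832349 to 29833192, minus strand). The proximal share was 31.4%, 44.4% and 44.3% in the GFP libraries and 71.7%, 74.8% and 69.7% in the WT libraries. All WT libraries lay above all GFP libraries, and the rise of 32.0 points had an adjusted p of 8.92e-04 (log2 odds difference 1.92, SE 0.34). The distal transcripts fell from 20.3 ± 1.89 to 8.20 ± 0.358 TPM while the proximal ones went from 13.7 ± 2.92 to 21.3 ± 1.85, values given without a test of their own. In sw, the intermediate chain of cytoplasmic dynein, sites 24 nt apart (chromosome X, 20230618 to 20232116 and 20230594 to 20232116, minus strand) gave a proximal share of 26.9% ± 4.90 in GFP and 56.3% ± 5.91 in WT (adjusted p 0.00133). In tacc, a centrosome and microtubule protein, sites 42 nt apart (chromosome 3R, 4737781 to 4741851 and 4737739 to 4741851, minus strand) went from 36.9% ± 7.53 to 64.3% ± 3.34 (adjusted p 2.35e-04). A second intron of tacc with another 5′ splice site ends at the same 2 sites, so these pairs are not independent. In Zyx, the zyxin of focal adhesions, the share went from 31.5% ± 3.88 to 56.1% ± 4.88 at sites 19 nt apart in untranslated sequence (adjusted p 8.26e-04).

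Other rises were in coding sequence or at sites very close together. In tral, a protein of translationally repressed RNA granules, sites lie 12 nt apart in coding sequence (chromosome 3L, 12517060 to 12517415 and 12517060 to 12517427, plus strand). The proximal share was 20.1%, 13.5% and 12.8% in GFP and 44.1%, 41.1% and 43.3% in WT. The groups did not overlap, and the rise of 27.4 points had an adjusted p of 4.86e-06 (log2 odds difference 1.99, SE 0.20). The transcripts with either site held at least 7463 estimated counts per library. Such counts are totals over whole transcripts, and the reads that tell the sites apart are not known. In wge, a chromatin protein known from eye and wing development, the share went from 52.4% ± 14.5 to 89.3% ± 2.34 at sites 36 nt apart (adjusted p 2.18e-04). The GFP libraries of wge were spread from 39.3% to 67.9%. In ap, a LIM-homeodomain transcription factor, sites 3 nt apart went from 68.0% ± 9.79 to 92.5% ± 4.42 (adjusted p 0.00214).

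The largest difference was in RpL15, a protein of the large ribosomal subunit, whose sites lie 94 nt apart in untranslated sequence (chromosome 3L, 27267284 to 27267513 and 27267284 to 27267607, plus strand). The proximal share was 6.67%, 53.3% and 36.2% in GFP and 86.4%, 72.8% and 90.7% in WT. The groups did not overlap, but the GFP libraries disagreed widely, with distal transcripts at 580 ± 683 TPM. The adjusted p was 9.81e-04, and 0.0879 in a fit of GFP and WT alone. In CG3662, sites 28 nt apart in untranslated sequence (chromosome 2L, 824138 to 824190 and 824138 to 824218, plus strand) gave 20.4%, 23.5% and 17.9% in GFP and 50.3%, 59.4% and 56.6% in WT. The 2 groups lay far apart, and the adjusted p was 6.70e-06 (log2 odds difference 2.22, SE 0.23), with as few as 214 estimated counts over whole transcripts. In DIP2, a protein that binds the transcription factor disco, sites 51 nt apart (chromosome 3L, 252996 to 253313 and 252945 to 253313, minus strand) gave 36.7%, 39.7% and 40.0% in GFP and 72.8%, 75.3% and 74.4% in WT. Within-group values differed by a few points and the adjusted p was 1.83e-04. Naprt, the nicotinate phosphoribosyltransferase of NAD synthesis, went from 10.9% ± 9.77 to 41.4% ± 8.09 at 35 nt (adjusted p 0.00868). CG7408 went from 21.6% ± 5.30 to 51.8% ± 14 at 27 nt (adjusted p 0.0229).

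The 12 largest differences downward ran from −13.4 to −27.5 points. In 4E-T, which binds the cap-binding protein eIF4E in granules of untranslated RNA, sites lie 93 nt apart in coding sequence (chromosome 4, 953900 to 954019 and 953807 to 954019, minus strand). The proximal share was 95.4%, 89.9% and 93.4% in GFP and 74.6%, 71.2% and 69.5% in WT. All WT libraries lay below all GFP libraries, and the fall had an adjusted p of 4.32e-06 (log2 odds difference −2.28, SE 0.23). In Galphas, the stimulatory G protein α subunit, the share at coding sites 9 nt apart was 38.7%, 37.2% and 35.9% in GFP and 20.9%, 21.6% and 23.8% in WT. The 2 groups were tight and apart, with an adjusted p of 1.55e-05 (log2 odds difference −1.04, SE 0.12). In Serinc, a membrane protein, coding sites 9 nt apart (chromosome 3L, 16414494 to 16414793 and 16414494 to 16414802, plus strand) went from 79.8% ± 1.78 to 65.0% ± 0.0503 (adjusted p 1.48e-04). In ND-15, a subunit of mitochondrial complex I, the share at coding sites 71 nt apart, a distance that shifts the frame, went from 92.3% ± 1.64 to 77.6% ± 2.38 (adjusted p 0.00462).

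Sites 3 nt apart supplied 4 of the 12 falls. Epg5, which in mammals acts in the fusion of autophagosomes, went from 98.8% ± 2.06 to 80.2% ± 8.69 (adjusted p 5.91e-04), and CG44774 from 62.0% ± 8.64 to 44.1% ± 2.19 (adjusted p 0.00316). The ubiquitin ligases Ubr3 and Herc4 went from 91.8% ± 4.87 to 77.9% ± 4.78 (adjusted p 0.0192) and from 58.2% ± 3.89 to 44.8% ± 3.07 (adjusted p 7.29e-04). The remaining falls were in Nipsnap (41 nt, from 60.7% ± 5.98 to 33.2% ± 6.86, adjusted p 0.0128), CG32795 (61 nt, from 40.3% ± 6.43 to 17.3% ± 8.91, adjusted p 0.0345), CG33096 (30 nt, from 97.6% ± 4.24 to 77.5% ± 11.5, adjusted p 0.00666) and CG8671 (81 nt, from 77.5% ± 3.70 to 61.3% ± 10.4, adjusted p 0.00903).

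Of these 24 pairs, 5 lost the call when 1 library was left out. For Nipsnap the adjusted p was then 0.0571 without GFP replicate 3 and 0.0664 without WT replicate 3. For CG7408 it was 0.0755 to 0.114 without GFP replicate 1, GFP replicate 2 or WT replicate 1, and for CG8671 it was 0.0516 without WT replicate 1 and 0.0515 without WT replicate 3. It was 0.0588 to 0.106 for Ubr3 without GFP replicate 1, GFP replicate 2 or WT replicate 3, and 0.0536 to 0.155 for CG32795 in 5 of 6 such fits, all but the one without WT replicate 1. CG32795 was also lost in a fit of the 12 libraries of its set (0.0857). With only transcripts that are identical elsewhere, 18 of the 24 pairs could be tested and 16 kept the call. In that setting Nipsnap differed by −10.7 points (adjusted p 0.510) and CG8671 by 3.14 points in the other direction (adjusted p 0.343). A fit of GFP and WT alone lost Naprt (0.183), CG7408 (0.0653), ap (0.0513), CG32795 (0.0988), CG33096 (0.0886), CG44774 (0.115), CG8671 (0.159), Ubr3 (0.0946) and Herc4 (0.0570), besides RpL15.

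**Figure D3:**
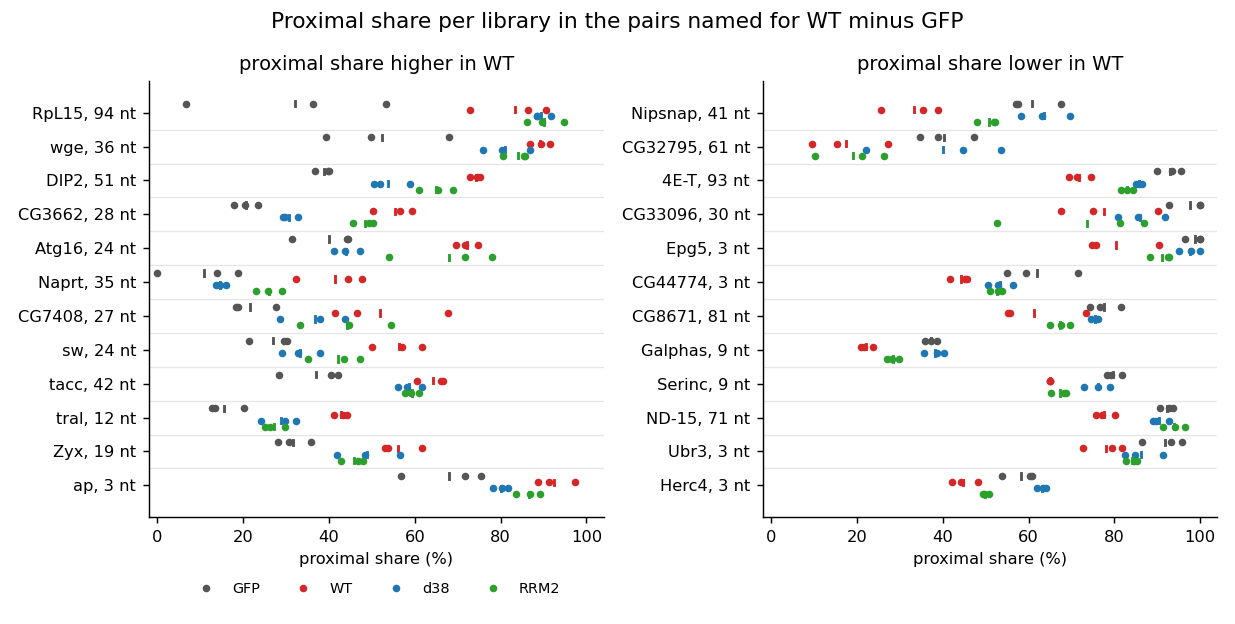
Proximal share in percent (horizontal axis) of the 12 largest rises (left) and the 12 largest falls (right) in WT against GFP, 1 row per pair with its distance in nt, 1 point per library and a tick for the mean of GFP (grey), WT (red), d38 (blue) and RRM2 (green). WT and GFP do not overlap in these pairs by the rule that chose them; d38 lies near GFP in Atg16 and Galphas and near WT in RpL15 and tacc.

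The next comparison was of the d38 form. Against GFP, the proximal share rose in 40 pairs and fell in 13 in d38, 53 of 1194 (4.44%, beside 8.26% of all splice-site pairs, 4.77% higher and 3.49% lower). At an unadjusted p under 0.05 there were 186. The largest rises were in RpL15 (32.0% ± 23.6 in GFP and 89.5% ± 1.88 in d38, adjusted p 5.03e-04), wge (52.4% ± 14.5 and 81.0% ± 5.50, adjusted p 0.00825), the second tacc intron (46.3% ± 6.47 and 74.7% ± 2.96, adjusted p 0.0107) and CG1407 (41.3% ± 10.5 and 60.8% ± 3.69, adjusted p 0.0193). The largest falls were smaller. They were in Mbs, the targeting subunit of myosin phosphatase (70.9% ± 3.10 and 58.2% ± 2.90 at 7 nt, adjusted p 0.0128), CG33096 (97.6% ± 4.24 and 86.0% ± 5.53, adjusted p 0.0409), CG44085 (24.3% ± 0.193 and 15.7% ± 2.68 at 48 nt, adjusted p 0.0238) and Syb, a vesicle fusion protein (43.8% ± 3.5 and 35.9% ± 1.48 at 69 nt, adjusted p 0.0336). Leaving out 1 library lost the calls of wge (0.0509 without d38 replicate 3), of Mbs (0.0594 without d38 replicate 3 and 0.0599 without GFP replicate 1) and of CG1407 in 3 of 6 fits (0.0593 to 0.0914, without d38 replicate 1, d38 replicate 2 or GFP replicate 3). With only transcripts identical elsewhere, the calls of CG1407 (0.257) and CG33096 (0.0535) were lost as well. Leaving out 1 library lost CG44085 in 4 fits (0.0568 to 0.120), CG33096 in 5 (0.0556 to 0.147) and Syb in 5 (0.0581 to 0.153).

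Against WT, the share was higher in d38 in 32 pairs and lower in 36, together 68 of 1194 (5.70%, beside 5.15% of all splice-site pairs, 2.44% higher and 2.71% lower). At 13 to 30 nt, 9 were higher and 17 lower (7.95% of that class). The clearest difference was in B52, an SR protein that promotes splicing, at coding sites 15 nt apart (chromosome 3R, 13662405 to 13662954 and 13662405 to 13662969, plus strand). Its proximal share was 27.1%, 27.0% and 28.4% in WT, and 7.14%, 7.05% and 5.25% in d38. The d38 libraries lay near GFP, at 5.87%, 4.98% and 4.60%, and the difference of −21 points from WT had an adjusted p of 6.12e-08 (log2 odds difference −2.30, SE 0.14). Between d38 and GFP the adjusted p was 0.241. In Atg16, d38 was at 43.8%, 41.2% and 47.2%, all below the WT libraries given above (adjusted p 0.00650). CG3662 was at 30.6% ± 1.89 in d38 (adjusted p 8.99e-04 against WT) and sw at 33.2% ± 4.46 (adjusted p 0.0225).

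Of the named pairs higher in d38 than in WT, Herc4 was at 63.2% ± 1.04 in d38 and 44.8% ± 3.07 in WT (adjusted p 9.53e-05). Epg5 was at 97.7% ± 2.44 and 80.2% ± 8.69 (adjusted p 0.00672), and Nipsnap at 63.5% ± 5.78 and 33.2% ± 6.86 (adjusted p 0.0162). In CG7408 a second pair, 72 nt apart, was at 82.8% ± 3.28 in d38 and 62.7% ± 5.05 in WT (adjusted p 0.00514). Among pairs named for WT against GFP, Galphas was at 40.2%, 35.7% and 38.6% in d38, overlapping GFP and above WT (adjusted p 2.50e-05 against WT). RpL15 in d38, at 91.7%, 88.4% and 88.5%, overlapped WT (adjusted p 0.708). The calls against WT were lost for sw in 4 of 6 fits without 1 library (0.0614 to 0.0963; d38 replicate 1 or 2, WT replicate 1 or 2) and for Nipsnap in 3 (0.0520 to 0.0897; d38 replicate 2 or 3, WT replicate 3). With only transcripts identical elsewhere, Nipsnap differed by 9.19 points (adjusted p 0.705). Epg5 was lost with a smaller offset in the log odds (0.0700).

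For RRM2, more pairs were called against GFP than against WT. Against GFP, 97 of 1194 pairs were called (8.12%, beside 8.78% of all), 58 higher and 39 lower, beside 4.63% and 4.15% of all. The named rises were RpL15 (90.2% ± 4.30, adjusted p 3.86e-04), wge (84.0% ± 2.92, adjusted p 0.00340), Atg16 (67.9% ± 12.4, adjusted p 0.00419) and CG3662 (48.4% ± 2.55, adjusted p 1.08e-04). The falls were CG33096 (73.5% ± 18.4, adjusted p 0.00686), Pink1, a mitochondrial kinase (99.9% ± 0.0898 in GFP and 77.6% ± 11.0 at 91 nt, adjusted p 0.0468), Pur-alpha (76.1% ± 6.25 and 60.9% ± 3.0 at 23 nt, adjusted p 0.0456) and 14-3-3epsilon. The calls of Pink1 were lost in 6 of 6 fits without 1 library (0.0788 to 0.144) and those of Pur-alpha in 5 (0.0518 to 0.188), and with transcripts identical elsewhere Atg16 (0.0743) and Pink1 (0.0591) were not called.

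Against WT, 16 of 1194 pairs were called in RRM2 (1.34%, beside 1.50% of all). Of these, 4 were higher (0.496% of all) and 12 lower (1.0% of all). At an unadjusted p under 0.05 there were 127. The gene 14-3-3epsilon, an adaptor that binds phosphorylated proteins, uses proximal sites 18 and 15 nt before a common distal site in coding sequence (chromosome 3R, introns from 18248152 to 18248214, 18248217 and 18248232, plus strand). At 18 nt the share was 67.3%, 67.3% and 65.7% in GFP, 59.5%, 60.1% and 60.2% in WT, and 46.9%, 47.9% and 47.3% in RRM2. RRM2 lay below both other groups, with adjusted p-values of 2.80e-08 against GFP and 5.77e-06 against WT. At 15 nt it was 46.1%, 43.0% and 45.2% in WT and 32.9%, 32.2% and 31.5% in RRM2 (adjusted p 1.93e-04, and 0.108 by edgeR on estimated counts). The d38 libraries, at 50.7%, 52% and 50.9%, lay above WT at 15 nt (adjusted p 0.0225). The 2 pairs share their distal transcript, at 294 ± 21 TPM in WT and 439 ± 13.4 in RRM2.

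The other shares lower in RRM2 than in WT were tral (27.1% ± 2.40 and 42.8% ± 1.54, adjusted p 0.0200), Rox8 (29.5% ± 0.405 and 41.3% ± 2.05, adjusted p 0.0326) and B52 at 15 nt. B52 was at 16.2%, 17.9% and 16.8% in RRM2, between WT and GFP and overlapping neither (adjusted p 0.00531 against WT and 8.66e-07 against GFP). Against WT this difference was −8.61 points with transcripts identical elsewhere (adjusted p 0.684). Higher in RRM2 were CG17683 (80.7% ± 1.55 and 62.1% ± 3.67 at 12 nt, adjusted p 0.00851), ND-15 (93.9% ± 2.58 and 77.6% ± 2.38, adjusted p 0.00716) and Ctl2, a choline transporter-like protein (85.7% ± 0.445 and 78.7% ± 0.693 at 3 nt, adjusted p 0.0307). Leaving out 1 library lost Ctl2 (0.0572 to 0.118) and Rox8 (0.0684 to 0.146) in 6 of 6 fits, tral in 4 (0.0606 to 0.0868; RRM2 replicate 1 or 2, WT replicate 1 or 3) and ND-15 without RRM2 replicate 2 (0.0505). The count of 16 fell to between 6 and 12 in such fits, with 6 without RRM2 replicate 2, 9 without RRM2 replicate 1, and 10 without WT replicate 1 or 2.

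**Figure D4:**
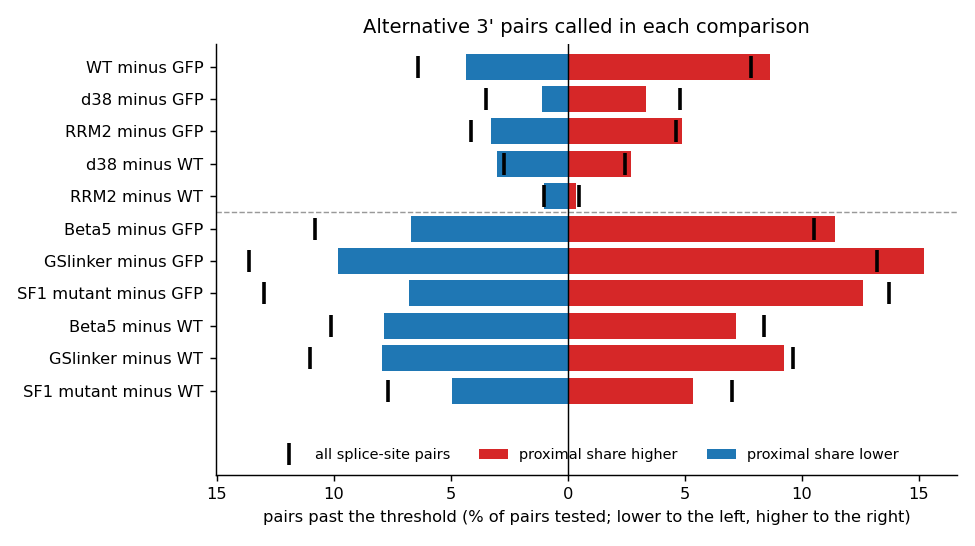
Share of the 1194 tested pairs past the threshold (horizontal axis, in percent), with rises of the proximal share in red to the right and falls in blue to the left, for 11 comparisons; black ticks mark the share over all 11697 splice-site pairs. Rises outnumber falls against GFP in all 6 LS2 groups, and comparisons below the dashed line cross the 2 library sets.

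Beta5, GSlinker and the SF1 mutant were compared with GFP and WT across the library sets. Against GFP, 216 pairs were called in Beta5 (18.1%, beside 21.3% of all splice-site pairs), 136 higher and 80 lower, where 10.5% and 10.8% of all were. In GSlinker 299 were called (25.0%, beside 26.8%), 182 higher and 117 lower, beside 13.2% and 13.6%. In the SF1 mutant 232 were called (19.4%, beside 26.6%), 151 higher and 81 lower, beside 13.7% and 13.0%. Against WT, Beta5 had 180 called (15.1%, beside 18.5%), 86 higher and 94 lower, beside 8.39% and 10.1%. GSlinker had 205 (17.2%, beside 20.6%), 110 higher and 95 lower, beside 9.61% and 11.0%. The SF1 mutant had 123 (10.3%, beside 14.7%), 64 higher and 59 lower, beside 7.03% and 7.69%. In the SF1 mutant against WT the count was 76 without SF1 mutant replicate 3, 77 without WT replicate 3 and 10 in a fit of the 2 groups alone. Over all 7 groups together, limma's F test called 365 pairs (30.6%, beside 37.3% of all).

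Several of the largest differences followed the library sets. Hel25E, the fly UAP56 helicase of spliceosome assembly and RNA export, has untranslated sites 7 nt apart (chromosome 2L, 5541977 to 5542182 and 5541970 to 5542182, minus strand). Its proximal share lay between 93.8% and 99.5% in all 12 libraries of the first set and between 71.8% and 77.2% in all 9 of the second. The adjusted p against GFP was 8.41e-09 in Beta5 and 9.56e-09 in the SF1 mutant. In Pss, a phosphatidylserine synthase, at 3 nt, the first 12 libraries lay between 62.4% and 72.9% and the other 9 between 32.6% and 58.1%. In Asx, a Polycomb-group protein, at 3 nt, the first set lay between 36.4% and 70.7% and the second between 0.0444% and 32.9%. The set and the mutations cannot be told apart in these pairs.

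The other pairs named against GFP in this set were RpL15 in all 3 groups (97.8% ± 0.503 in Beta5, 98.7% ± 0.463 in GSlinker, 93.8% ± 0.791 in the SF1 mutant) and Gbeta13F, a G protein β subunit, at 84 nt (47.5% ± 15.6 in GFP and 84.4% ± 7.34, 90.3% ± 3.14 and 84.3% ± 10.6). PpD3, a protein phosphatase, rose in Beta5 at 97 nt (26.5% ± 4.84 and 78.5% ± 19.4, adjusted p 0.00639), CG3662 in GSlinker (66.5% ± 1.50, adjusted p 3.87e-07) and wge in the SF1 mutant (87.3% ± 4.37, adjusted p 2.72e-04). The share in cg, a zinc-finger protein of limb patterning, fell at 21 nt in Beta5 (74.3% ± 11.9 and 41.6% ± 7.94, adjusted p 0.00252) and GSlinker (36.3% ± 9.25, adjusted p 5.98e-04). CG44774 fell in the SF1 mutant (38% ± 3.13, adjusted p 1.61e-04). Asx in Beta5 (adjusted p 0.0455) was not called in 5 of 6 fits without 1 library (0.0689 to 0.170) or with transcripts identical elsewhere (0.0515). Fits of the 2 groups alone lost PpD3 in Beta5 (0.0895), Asx in GSlinker (0.0872), and Gbeta13F (0.0655) and Pss (0.0763) in the SF1 mutant.

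Against WT, Nipsnap was higher in Beta5 (71.5% ± 9.70, adjusted p 9.37e-04) and in the SF1 mutant (70.3% ± 3.44, adjusted p 0.00193). AMPKalpha, the catalytic subunit of the energy-sensing kinase, was higher at 8 nt in GSlinker (66.1% ± 5.45 in WT and 97.1% ± 4.96, adjusted p 0.001) and also in the SF1 mutant (98.4% ± 1.78, adjusted p 0.00169). CtBP, a transcriptional corepressor, was higher at 24 nt in Beta5 (28.3% ± 5.57 in WT and 70.8% ± 7.10, adjusted p 0.0124) and GSlinker (62.5% ± 26.1, adjusted p 0.0187). Dhc64C, the heavy chain of cytoplasmic dynein, was lower at 86 nt in Beta5 (58.5% ± 2.95 in WT and 27.2% ± 7.86, adjusted p 0.0167) and GSlinker (16.9% ± 10.2, adjusted p 8.59e-04). The cg pair at 21 nt, at 73.5% ± 3.51 in WT, was lower in Beta5 (adjusted p 0.00462) and GSlinker (adjusted p 0.00130). Asx was lower in GSlinker (53.8% ± 16.7 in WT and 12.2% ± 11.3, adjusted p 0.00744). Other named pairs were dgrn in Beta5 and HDAC4 in GSlinker, both higher, and in the SF1 mutant a second cg pair, higher, and Pss and sw, lower. Without 1 library, the call of CtBP was lost in Beta5 (0.0546 and 0.0561, without Beta5 replicate 1 or WT replicate 3) and in GSlinker (0.0730, without WT replicate 3), and that of Dhc64C in Beta5 (0.0504 without WT replicate 1 and 0.0769 without Beta5 replicate 3). HDAC4 was lost in GSlinker in 3 of 6 such fits (0.0614 to 0.117), and cg in 3 (0.0986 to 0.164) and sw in 3 (0.0661 to 0.0950) in the SF1 mutant. Nipsnap was lost in both groups with transcripts identical elsewhere (0.144 in Beta5 and 0.228 in the SF1 mutant). Fits of the 2 groups alone lost dgrn in Beta5 (0.0700), HDAC4 (0.0927), CtBP (0.195) and Asx (0.127) in GSlinker, and the second cg pair (0.164), Pss (0.133) and sw (0.118) in the SF1 mutant.

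A list of 40 genes of 3′ splice-site recognition and splicing regulation was examined whatever its values. Of these, 38 were matched, and 15 had 36 of the tested pairs. In WT against GFP, 3 of the 36 pairs were called (8.33%, beside 14.2% of all splice-site pairs), all higher, with a median difference of 1.63 points over the 36 (0.00 over all). They were both B52 pairs and Rox8, the fly relative of the RNA-binding protein TIA-1. In d38 against GFP, 2 were called (5.56%, beside 8.26% of all), both higher, namely B52 at 63 nt and shep at 18 nt. In RRM2 against GFP, 5 were called (13.9%, beside 8.78% of all), with both B52 pairs and Rm62 higher and Hrb98DE and shep at 21 nt lower. Against WT, 6 were called in d38 (16.7%, beside 5.15% of all), all lower, namely both B52 pairs, Rox8, shep at 21 nt, tra2 at 15 nt and Psi. Of these, tra2 (adjusted p 0.0475) and Psi (0.0435) were near the threshold. The shep share was low, at 3.66% in d38 and 5.08% in WT, and the B52 pairs are in the same gene. In RRM2 there were 3 (8.33%, beside 1.50% of all), all lower, namely B52 at 15 nt, Rox8 and shep at 21 nt. Across the library sets, Beta5 had 6 called against GFP (16.7%, beside 21.3% of all), GSlinker 9 (25.0%, beside 26.8%) and the SF1 mutant 10 (27.8%, beside 26.6%). Against WT, Beta5 had 8 (22.2%, beside 18.5%), GSlinker 9 (25.0%, beside 20.6%) and the SF1 mutant 5 (13.9%, beside 14.7%). The U2AF genes themselves had no pair among the 1194.

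In B52 the order over all groups at 15 nt was WT (27.5% ± 0.794), GSlinker (22.4% with all libraries from 22.1% to 22.7%), RRM2 (17% ± 0.874), the SF1 mutant (9.88% to 11.3%), Beta5 (6.26% to 9.70%), d38 (5.25% to 7.14%) and GFP (4.60% to 5.87%). Beta5 and d38 overlapped, as did d38 and GFP, and the other neighbours did not. Between WT and GFP the adjusted p was 2.35e-09. The proximal transcripts of B52 averaged 78.5 ± 3.21 TPM in WT, 60.9 ± 0.631 in GSlinker, 48.7 ± 3.01 in RRM2, 32.2 ± 4.30 in the SF1 mutant, 22.6 ± 4.96 in Beta5, 20.8 ± 3.56 in d38 and 16.9 ± 2.55 in GFP. The distal ones ran from 207 ± 4.86 TPM in WT and 212 ± 4.23 in GSlinker to 300 ± 1.44 in d38 and 310 ± 5.23 in GFP. At the second B52 pair, 63 nt apart (chromosome 3R, 13666249 to 13666355 and 13666249 to 13666418), the share was low throughout, at 0.315% in GFP and 3.76% in WT (adjusted p 1.86e-05). Transcripts of B52 differ in more than these sites. With those identical elsewhere, the 15 nt pair was at 0.589% in GFP, 21.3% in WT and 2.54e-05% in d38. These are group means given without their spread, and the d38 value is at the floor. In that setting RRM2 against WT was not called (−8.61 points, adjusted p 0.684).

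In Rox8 the sites are 18 nt apart in coding sequence (chromosome 3R, 24044146 to 24044196 and 24044128 to 24044196, minus strand). The proximal share was 26.1%, 27.8% and 26.8% in GFP and 40.5%, 39.8% and 43.6% in WT. The RRM2 libraries were at 29.5%, 29.1% and 29.9% and the d38 libraries at 30.1%, 30.6% and 32.1%. WT lay above these 3 groups, with an adjusted p of 0.00110 against GFP. No transcripts of the Rox8 sites were identical elsewhere, so its share can also move with other differences between those transcripts. Of the other groups, the SF1 mutant alone reached WT, in 1 of its libraries (40.2%).

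**Figure D5:**
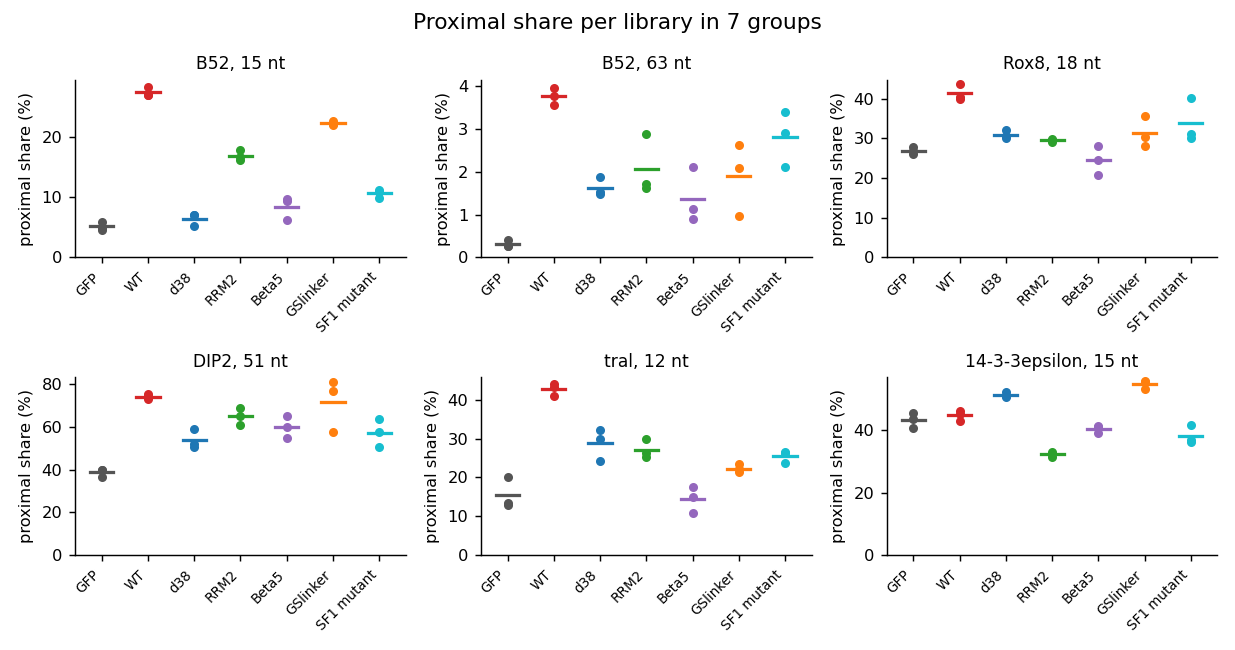
Proximal share in percent (vertical axis, from 0) in each of the 7 groups (horizontal axis) for 6 pairs, with 1 point per library and a bar for the group mean. WT has the highest mean in the B52, Rox8, DIP2 and tral panels, d38 is near GFP in B52 at 15 nt, and RRM2 is the lowest group for 14-3-3epsilon.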

How the data were processed

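Transcript abundance tables of 21 libraries were used, 1 per library. Per the file headers, the authors deposited 30594 transcripts with their length, effective length, estimated count and TPM. Estimated counts are not scaled between libraries, and TPM divides them by effective length and scales to a fixed total, so effective lengths enter the shares. Per the submitters' processing notes, STAR and kallisto were used with dm6 and BDGP6. Their versions and roles and the transcript release are not given in the sources used here. Groups came from the library titles.

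Identifiers were looked up in Ensembl release 115 of the BDGP6 annotation (30242 of 30594, or 98.8%, of which 187 had another length). Introns gave 21213 annotated pairs that share 1 splice site, of which 11784 had at least 1 TPM summed in all 21 libraries. Shares were tested as log2((share + 0.01)/(1 − share + 0.01)), with shares as fractions, in limma 3.58.1 in R 4.3.3, over 21 libraries with 14 residual degrees of freedom and a variance trend on mean TPM. P-values were adjusted over 11697 pairs, and SEs are on the log2-odds scale. The method was run on simulated counts of both sites with known changes. That simulation left out the assignment of reads to transcripts, so it cannot show how this step affects the shares. Alternatives used shares from estimated counts, other minimums and offsets, fewer libraries, transcripts identical elsewhere, 1 pair per distinct transcript set, a replicate block, no variance trend, and edgeR 4.0.16 on rounded counts of both sites. Named pairs had at least 5 TPM in all libraries, an adjusted p under 0.05 and no overlap between groups: the 12 largest of each direction for WT against GFP, 4 for d38 and RRM2, 3 for the others, and all pairs of a list of splicing genes. Members, lists and tests were chosen with earlier results of these data known. Precision is limited by 3 libraries per group. No genome sequence was used, so splice-site sequences were not read. The marker genes vas and nos were not analysed here. The pair of 1 gene that the rule named is not reported here.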

Additional observations from a re-analysis of the deposited data

How the results depend on the processing

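Of 213 counts of called pairs under alternatives, 184 lay within 1.5 times the count reported. Restricting to transcripts identical elsewhere, with fewer pairs tested, gave 102 pairs for WT, 31 for d38, 127 for the SF1 mutant, 120 for Beta5 and 174 for GSlinker against GFP, 65 for the SF1 mutant, 109 for Beta5 and 123 for GSlinker against WT, and 212 over all groups. Fits of 2 groups alone, with fewer libraries, gave 98 for WT, 192 for GSlinker and 127 for the SF1 mutant against GFP, and 43 for d38, 4 for RRM2, 120 for GSlinker and 10 for the SF1 mutant against WT. By edgeR there were 85 for d38 against GFP and 25 for RRM2 against WT, where 11 of the 25 were higher. Requiring 5% use of the lesser site gave 10 for RRM2 against WT. An offset of 0.05 gave 22 there, 9 higher and 13 lower. The causes were not tested. Leaving out 1 library gave 118 to 141 for WT, 69 to 86 for RRM2, 37 to 49 for d38, 183 to 237 for the SF1 mutant, 157 to 181 for Beta5 and 237 to 284 for GSlinker against GFP. Against WT it gave 6 to 12 for RRM2, 39 to 48 for d38, 76 to 134 for the SF1 mutant, 125 to 154 for Beta5 and 148 to 204 for GSlinker. For d38 against WT the count was 45 without d38 replicate 1 or 3, 42 without d38 replicate 2 and 39 without WT replicate 3.

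Same-numbered replicates did not deviate together over the tested splice-site pairs (correlations of −0.0638 to 0.069), and the main fit did not pair libraries by number. These correlations cannot show whether such libraries were prepared together, and the labels do not say. With the replicate number as a block, 143 pairs were called for WT, 90 for RRM2, 54 for d38, 221 for the SF1 mutant, 207 for Beta5 and 283 for GSlinker against GFP. Against WT there were 13 for RRM2, 60 for d38, 115 for the SF1 mutant, 174 for Beta5 and 195 for GSlinker, and 340 over all groups.

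Of 1667 alternative values of the 91 named differences, 1666 kept their direction and 1494 also passed the threshold. Most settings could not turn a direction, so the count of kept directions says little about stability. Offsets, minimums, trend, block and the choice of other groups leave the difference between group means as it was. Leaving out a library cannot turn groups that do not overlap, which the naming rule required. Only estimated counts, edgeR and transcripts identical elsewhere could turn it. The value that turned was CG8671 at 81 nt in WT against GFP, at 3.14 points with transcripts identical elsewhere. In that setting 65 of the 91 differences could be tested, and 54 kept the call. Fits of 2 groups alone lost 40 of the 91 calls. Among those within the first library set, they were RpL15, wge, CG1407, Mbs, CG33096, CG44085 and Syb for d38 against GFP, RpL15, Atg16, CG33096 and Pur-alpha for RRM2 against GFP, Epg5 and sw for d38 against WT, and CG17683, ND-15, Ctl2, tral and Rox8 for RRM2 against WT, besides those given for WT against GFP. The part of depth in the calls was not tested. The named pair with the fewest estimated counts over whole transcripts, dgrn, had as few as 147.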
